A study of Mus musculus with 10 samples.

Results

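The genes followed here encode Eph receptors, ephrins, Slits, Robos, netrins and the netrin receptors Dcc and Unc5, the classical cues and receptors of axon guidance. They were taken by gene symbol from whole-transcript Affymetrix arrays of mouse dentate gyrus: every annotated Epha, Ephb, Efna, Efnb, Slit, Robo, Ntn and Unc5 gene with a number or letter from a to d, plus Dcc. This gave 37 of the 19752 genes measured by a single-gene probe set, namely 13 Eph receptors, 8 ephrins, 3 Slits, 4 Robos, 4 netrins and 5 netrin receptors; Ephb2 was not analysed here. All mice were untreated and of the strain that the labels write C56BL/6J, labelled as female, and both gyri were dissected at 4, 6, 8, 10 and 12 weeks of age, with 2 arrays per age. Whether both arrays of an age stem from different animals is not stated, so the tests measure the spread between arrays, which may be technical.

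Eph receptors are tyrosine kinases that are activated by ephrins on the surface of a neighbouring cell, and ephrins can signal back into the cell that carries them. Slits are secreted repellents read by Robo receptors, and netrins are secreted cues that attract growth cones through Dcc and repel them through Unc5 receptors. In the dentate gyrus, where granule neurons are born after birth and send mossy fibres to CA3, such cues are known to act on the position of progenitors, on axon paths and on dendritic spines. In tissue arrays, fewer cells of a type and less RNA per cell cannot be told apart.

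Levels below are the deposited values, taken as log2 units per probe set, and they do not rank different genes against each other. All 10 granule cell marker genes on the list used were above the level that marked dim genes, among them Prox1 and Calb1. Of the 37 guidance genes, 36 were above it on all 10 arrays. Epha1, an A-class Eph receptor, lay under it on every array, with levels between 6.39 and 6.79. The level that marks dim genes, 7.01, is the mean over arrays of the 95th percentile of 1207 olfactory, vomeronasal and trace amine receptor genes. The means of 27.1% of all genes lay under it, against 1 of the 37. Shares of all genes given later include these dim genes. Pearson correlations between arrays across genes were 0.994 to 0.998, and across genes they do not count as replicates. The array of 8 weeks replicate 1 stood apart by the narrowest distribution (SD 2.12, against 2.16 to 2.22 on the others), and that of 6 weeks replicate 1 by a Ttr level of 13.77, against 8.87 to 10.15. Against the label female, Xist lay between 5.41 and 6.02 on all arrays, and Eif2s3y, Kdm5d and Uty, which are Y-linked, had means of 8.97, 9.06 and 9.23.

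The design asks how the guidance genes changed between 4 and 12 weeks. In the linear trend over age (limma, Benjamini-Hochberg adjustment over 19752 genes), 0 of 37 guidance genes passed an adjusted p of 0.05, where 0.82% of all genes did. At an unadjusted p under 0.05 there were 9 of the 37, against 11.7% of all genes. Of these 6 had higher levels at the older ages, against 4.41% of all genes, and 3 had lower ones, against 7.28%. Changes below 0 made up 19 of the 37, against 48.8% of all genes. The lowest adjusted p, 0.054, was that of Ephb1. The changes over the 8 weeks lay between −0.32 (Ephb1) and 0.34 (Ntn5), with a median of −0.02 for the guidance genes and 0.00 for all genes. The median size regardless of sign was 0.10 for the guidance genes and 0.07 for all genes.

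**Figure D1:**
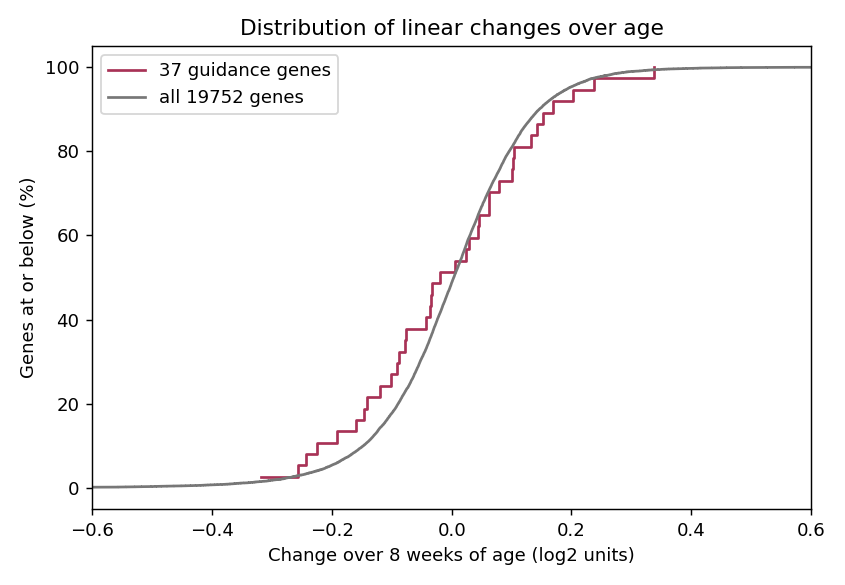
Share of genes (percent) at or below each linear change over the 8 weeks of age (log2 units), as steps for the 37 guidance genes and for all 19752 genes. Both lines cross 50% close to 0, and the guidance genes end at −0.32 and 0.34; the axis leaves out genes with larger changes.

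The spread between arrays, which may be technical, sets a bound on the linear change, gene by gene and without adjustment over genes. Its 95% interval lay within 0.5 log2 units of 0, or 1.41-fold, for 36 of the 37 guidance genes and for 94.1% of all genes. The exception was Ntn5, with an interval of 0.14 to 0.53. Differences between single ages are not covered by this bound: the interval of Slit2 was 0.05 to 0.66 for 12 minus 10 weeks, and that of Ntn5 0.12 to 0.58 for 12 minus 4 weeks. The SD between the arrays of an age, pooled over ages, had a median of 0.09 for the guidance genes and also for all genes, and ran from 0.02 (Unc5a) to 0.16 (Slit2).

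**Figure D2:**
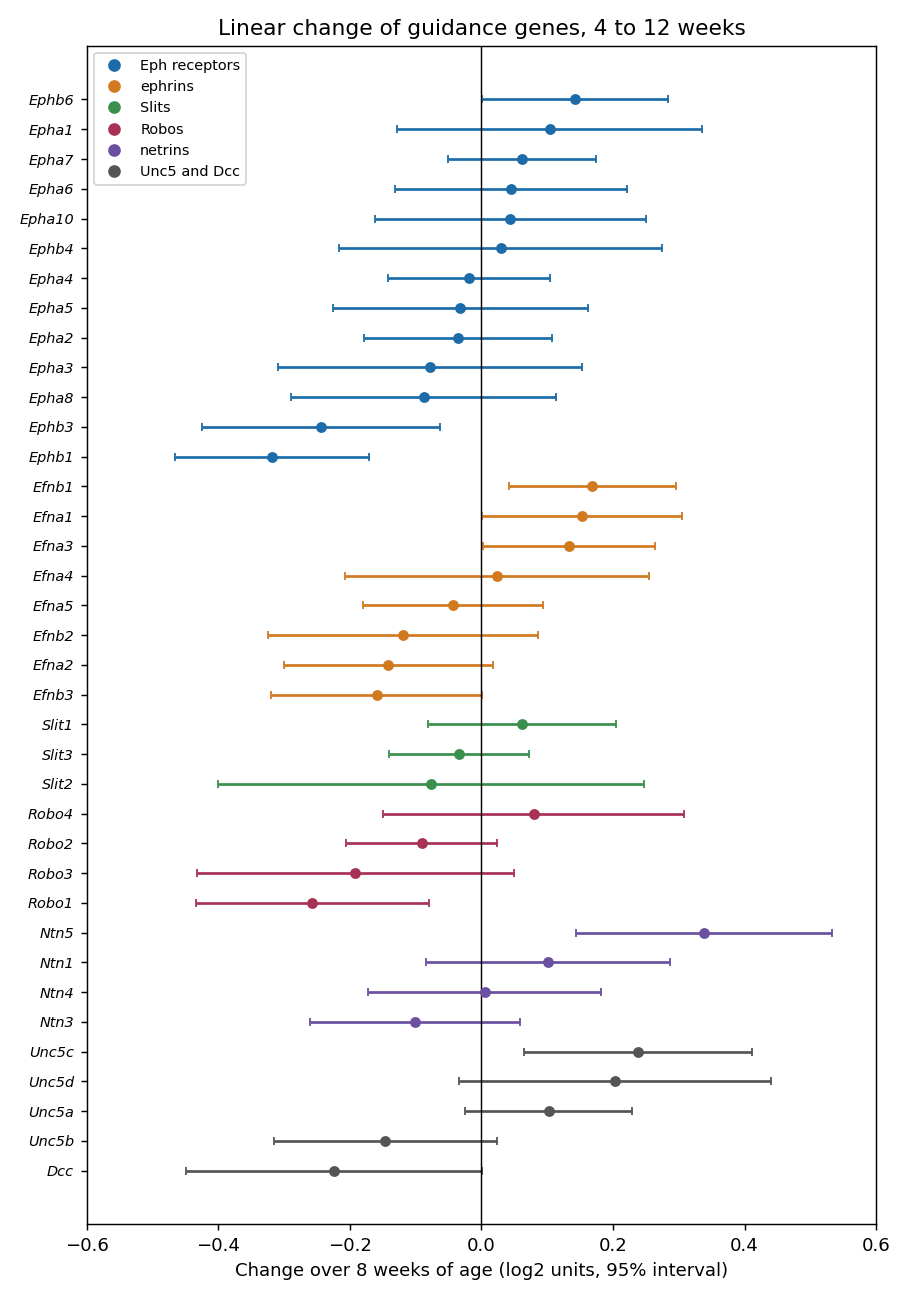
Linear change over the 8 weeks of age (log2 units) of the 37 guidance genes, grouped by family, with points for the fitted change and bars for its 95% interval over 10 arrays. The intervals of 9 genes do not include 0, and only that of Ntn5 reaches past 0.5.

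Among the Eph receptors, 3 of 13 had an unadjusted p under 0.05 in the trend, against 11.7% of all genes. They were Ephb1 and Ephb3, with lower levels at the older ages, and Ephb6, with higher ones; whether the B-class receptors differ from the A-class ones was not tested. Ephb1, a receptor for B-class ephrins that is known in mice to help position progenitors of the dentate gyrus, read 9.29 and 9.36 at 4 weeks, 9.20 and 9.22 at 6 weeks, 9.06 and 9.19 at 8 weeks, 9.00 and 8.97 at 10 weeks and 9.09 and 8.98 at 12 weeks. Both 4-week arrays lay above the other 8, and the 10-week and 12-week arrays overlapped. The fitted change was −0.32 ± 0.07 (SE), a level 1.25-fold lower at the end of the series (limma adjusted p = 0.054, just over the threshold). It was called if 8 weeks replicate 1 was left out (adjusted p = 0.039) or 12 weeks replicate 1 was (0.044), and also when the dimmest 30% of genes were left out (0.024). Without 4 weeks replicate 1 or 2 its adjusted p was 0.19 and 0.20, and without 12 weeks replicate 2 it was 0.14. Over all 19 alternatives it lay between 0.023 and 0.44, with 5 under the threshold. A further probe set of Ephb1, with a mean of 6.82 under the dim level, had a change of 0.04 ± 0.10, and the mean of both probe sets one of −0.14.

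Ephb1 lies on chromosome 9 at 101922128 to 102354693 (GRCm38.p6). Its promoter is shown because Ephb1 had the smallest p of the guidance genes, and that of Ntn5, on chromosome 7 at 45684022 to 45694556, because it had the smallest p among those with higher levels at the older ages. Both are RefSeq sequences of GRCm38.p6, 250 bases before to 50 after the start, at chr9:102354644-102354943 on the minus strand and chr7:45683772-45684071 on the plus strand. Capitals mark matches, on either strand, to the motifs searched. These were the TATA box, read as TATAAA, and the GC box that Sp factors bind, read as GGGCGG. The others were an E-box of the Neurod type, read as CAGATG, and a motif of Sox factors, read as AACAAT.
Ephb1: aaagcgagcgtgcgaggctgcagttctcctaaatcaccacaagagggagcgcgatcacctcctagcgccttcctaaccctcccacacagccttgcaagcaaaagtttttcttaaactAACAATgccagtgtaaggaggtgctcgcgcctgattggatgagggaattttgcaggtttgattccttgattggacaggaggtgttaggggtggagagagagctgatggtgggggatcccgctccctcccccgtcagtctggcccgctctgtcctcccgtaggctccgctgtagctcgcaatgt
Ntn5: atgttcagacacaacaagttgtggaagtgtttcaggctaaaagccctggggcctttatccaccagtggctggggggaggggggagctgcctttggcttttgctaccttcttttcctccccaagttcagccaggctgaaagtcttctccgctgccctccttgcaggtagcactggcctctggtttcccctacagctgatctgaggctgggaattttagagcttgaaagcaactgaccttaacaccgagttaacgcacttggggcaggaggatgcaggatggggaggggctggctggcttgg
The window of Ephb1 held 1 match, to the Sox motif, and that of Ntn5 held 0. They held 14 and 3 CG pairs in the same order. Of the 37 guidance genes 32 had an entry, and over the first entry of each their median was 20.5 CG pairs, against 7 over 27025 genes. The GC box was in 71.9% of the 32 and in 35.9% of all, the TATA box in 6.25% and 14.2%, the E-box in 9.38% and 17.2%, and the Sox motif in 3.12% and 10.9%. These matches are letters in a window and show no binding. The 27025 genes are more than the 19752 measured ones and were not matched to the guidance genes by level.

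Ephb3, another receptor for B-class ephrins, read 8.25 and 8.12 at 4 weeks, 8.14 and 8.33 at 6 weeks, 8.09 and 8.21 at 8 weeks, 8.04 and 8.16 at 10 weeks and 7.88 and 8.02 at 12 weeks. Both 12-week arrays lay under the other 8. Its change was −0.24 ± 0.08 (SE, limma adjusted p = 0.24). Ephb6, a family member whose kinase domain is inactive, had levels of 9.31 and 9.18 at 4 weeks, 9.29 and 9.33 at 6 weeks, 9.30 and 9.47 at 8 weeks, 9.37 and 9.31 at 10 weeks and 9.42 and 9.40 at 12 weeks. Its 12-week arrays lay above the 4-week ones and within the range of the 8-week ones, and the change was 0.14 ± 0.06 (SE, limma adjusted p = 0.42). Ephb4, known as the receptor of venous endothelium, had a change of 0.03 ± 0.11 and age means of 8.14, 8.31, 8.28, 8.09 and 8.28 from 4 to 12 weeks. The means of the 9 endothelial marker genes were 8.64, 8.82, 8.76, 8.61 and 8.87 at the same ages. Both were lowest at 4 and 10 weeks. Other guidance genes known from vessels did not share this order. Robo4 had means of 7.67 at 4 weeks, 7.86 at 10 and 7.80 at 12. Efnb2 and Unc5b were lowest at 10 weeks (9.06 and 8.17) but not low at 4 weeks (9.26 and 8.39). The part of endothelial cells in the level of Ephb4 was not tested.

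The A-class receptors had intervals that spanned 0. Epha4, which binds ephrins of both classes and acts on dendritic spines of hippocampal neurons, read 12.40 and 12.40 at 4 weeks, 12.36 and 12.44 at 6 weeks, 12.42 and 12.42 at 8 weeks, 12.38 and 12.30 at 10 weeks and 12.37 and 12.44 at 12 weeks. Its 6-week and 12-week arrays overlapped those of every other age, and both 10-week arrays lay under those of 4 and 8 weeks. The change of Epha4 had an interval of −0.14 to 0.10. Epha7 read 12.31 and 12.36 at 4 weeks, 12.28 and 12.32 at 6 weeks, 12.31 and 12.32 at 8 weeks, 12.37 and 12.32 at 10 weeks and 12.38 and 12.41 at 12 weeks. Both 12-week arrays were the highest, by a small margin, and the interval was −0.05 to 0.17. For Epha6 the interval was −0.13 to 0.22, for Epha5 −0.23 to 0.16, for Epha2 −0.18 to 0.11 and for Epha3 −0.31 to 0.15. Epha8 had a change of −0.09 ± 0.09, Epha1 of 0.10 ± 0.11 and Epha10, whose kinase domain is inactive, of 0.04 ± 0.09. The further probe set of Epha10 had a change of 0.08 ± 0.07.

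**Figure D3:**
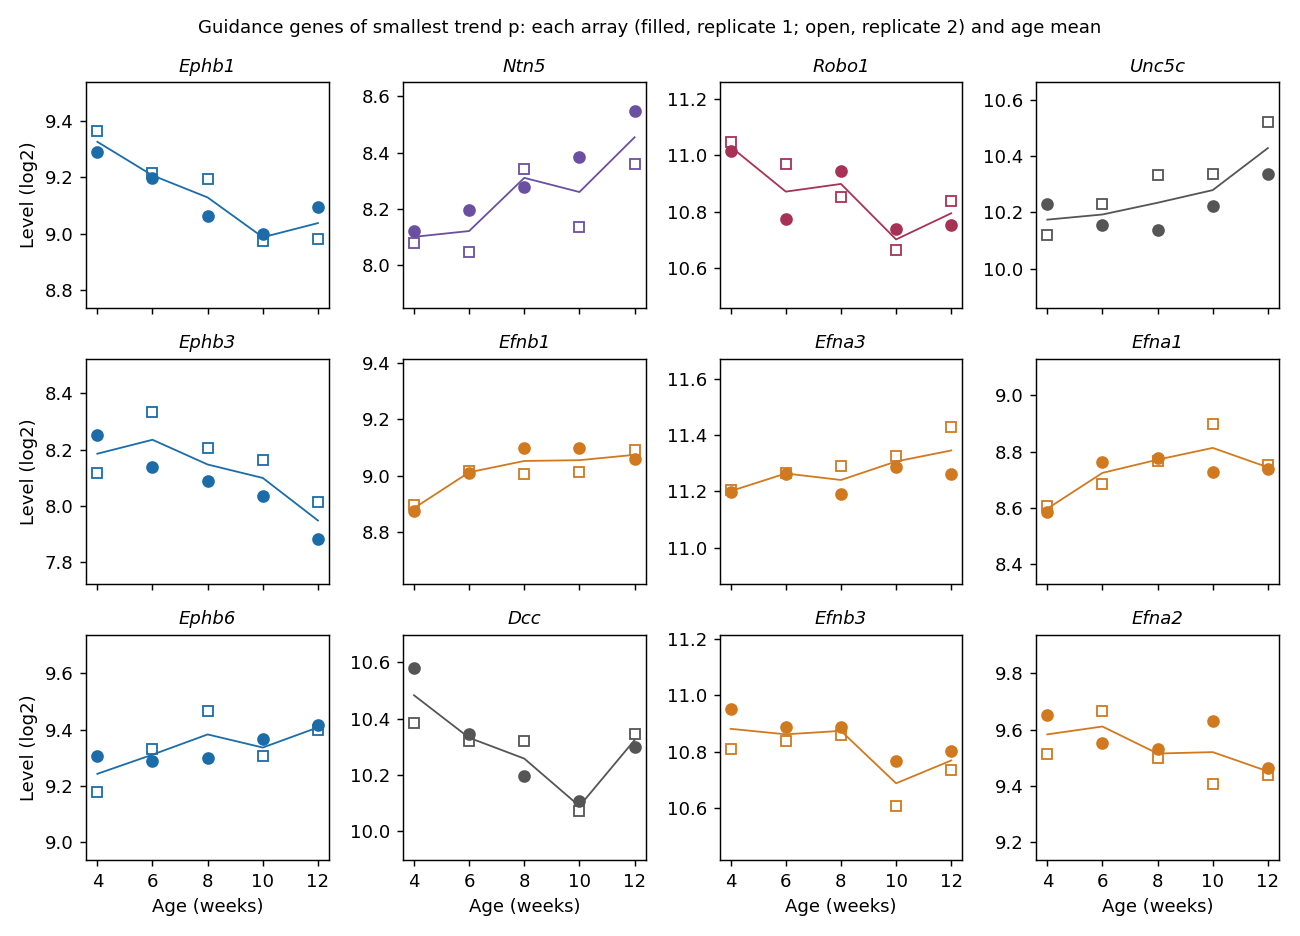
Level (log2 units) against age (weeks) for the 12 guidance genes of smallest p in the trend, with filled points for replicate 1, open squares for replicate 2 and a line through the age means. Every panel spans 0.8 log2 units around the gene's mean. Ephb1, Robo1 and Dcc are highest on both 4-week arrays, and Efnb1 and Efna1 are lowest there.

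Among the 8 ephrins, the ligands of the Eph receptors, 3 had an unadjusted p under 0.05 in the trend, against 11.7% of all genes. These 3 had higher levels at the older ages, against 4.41% of all genes, but over the family 4 changes were above 0 and 4 below it. Efnb1, a membrane-spanning ephrin, read 8.87 and 8.90 at 4 weeks, 9.01 and 9.02 at 6 weeks, 9.10 and 9.01 at 8 weeks, 9.10 and 9.01 at 10 weeks and 9.06 and 9.09 at 12 weeks. Both 4-week arrays lay under the other 8, and the age means were higher at every step. Its change was 0.17 ± 0.06 (SE, limma adjusted p = 0.25). The other gene with higher means at every step was Unc5c, which makes 2 of 37, against 1.16% of all genes; 0 of 37 had lower means at every step, against 2.23%.

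Efna1 and Efna3 encode ephrins held to the membrane by a lipid anchor, and Efna3 protein on hippocampal astrocytes is known as a partner of Epha4 on spines. Efna1 read 8.59 and 8.61 at 4 weeks, 8.76 and 8.69 at 6 weeks, 8.78 and 8.77 at 8 weeks, 8.73 and 8.90 at 10 weeks and 8.74 and 8.75 at 12 weeks. Both 4-week arrays were again the lowest, and the 10-week arrays overlapped those of the other later ages. The 8-week arrays lay barely above those of 6 and 12 weeks. Efna3 read 11.20 and 11.20 at 4 weeks, 11.26 and 11.26 at 6 weeks, 11.19 and 11.29 at 8 weeks, 11.29 and 11.33 at 10 weeks and 11.26 and 11.43 at 12 weeks, with the 8-week arrays overlapping those of 4 weeks. Their changes were 0.15 ± 0.07 and 0.13 ± 0.06 (SE, limma adjusted p = 0.42 for each). The genes are neighbours on chromosome 3, with 32.9 kb between Efna1 and Efna3 and 10.5 kb between Efna3 and Efna4, whose change was 0.02 ± 0.11.

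Efnb3, the ephrin known as a partner of Ephb1 in the dentate gyrus of mice, read 10.95 and 10.81 at 4 weeks, 10.89 and 10.84 at 6 weeks, 10.89 and 10.86 at 8 weeks, 10.77 and 10.61 at 10 weeks and 10.80 and 10.74 at 12 weeks. The 10-week arrays included the lowest, and the change was −0.16 ± 0.07 (SE, limma adjusted p = 0.43). Efna2 read 9.65 and 9.51 at 4 weeks, 9.55 and 9.67 at 6 weeks, 9.53 and 9.50 at 8 weeks, 9.63 and 9.41 at 10 weeks and 9.46 and 9.44 at 12 weeks, with overlap between most ages, and had a change of −0.14 ± 0.07 (limma adjusted p = 0.5). Efnb2, also known from arterial endothelium, had a change of −0.12 ± 0.09, and Efna5 one of −0.04 ± 0.06 with an interval of −0.18 to 0.09. The median over the ephrins was −0.01 and over the Eph receptors −0.02.

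None of the 3 Slit genes came near the threshold. Slit2 had the largest change of them, −0.08 ± 0.15, and read 9.74 and 9.59 at 4 weeks, 9.61 and 9.45 at 6 weeks, 9.27 and 9.69 at 8 weeks, 9.29 and 9.35 at 10 weeks and 9.58 and 9.77 at 12 weeks. The 4-week and 12-week arrays overlapped, and both 10-week arrays and 8 weeks replicate 1 were low. In the step from 10 to 12 weeks its difference was 0.36 ± 0.13 (SE, 12 minus 10 weeks, limma adjusted p = 0.87). Slit1 read 11.99 and 11.98 at 4 weeks, 12.11 and 12.16 at 6 weeks, 12.04 and 12.16 at 8 weeks, 12.03 and 12.05 at 10 weeks and 12.11 and 12.10 at 12 weeks. Both 4-week arrays lay under the other 8, and the change over the series was 0.06 ± 0.07. Slit3 stayed between 11.22 and 11.30 on all 10 arrays, with an interval of −0.14 to 0.07.

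Of the 4 Robo genes, Robo1 alone had an unadjusted p under 0.05 in the trend, against 11.7% of all genes. Robo1 read 11.01 and 11.05 at 4 weeks, 10.77 and 10.97 at 6 weeks, 10.94 and 10.85 at 8 weeks, 10.74 and 10.67 at 10 weeks and 10.75 and 10.84 at 12 weeks. Both 4-week arrays were higher, and both 10-week arrays lower, than all others. The change was −0.26 ± 0.08 (SE, limma adjusted p = 0.21), and the gene lies on chromosome 16 at 72027518 to 73047491, next to Robo2 at a distance of 844 kb. Robo2 had a change of −0.09 ± 0.05 with levels between 11.14 and 11.30. Robo3, known for letting commissural axons cross the midline, had a change of −0.19 ± 0.11, with 12-week levels of 7.88 and 7.80, against 8.04 and 7.98 at 4 weeks. Robo4, a Robo of endothelial cells that lies 2.02 kb from Robo3, had a change of 0.08 ± 0.11, with levels of 7.70 and 7.65 at 4 weeks under the other 8 arrays.

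Ntn5, netrin 5, which has been described in neurogenic regions of the adult mouse brain, had the largest change of the guidance genes. It read 8.12 and 8.08 at 4 weeks, 8.19 and 8.05 at 6 weeks, 8.28 and 8.34 at 8 weeks, 8.39 and 8.13 at 10 weeks and 8.55 and 8.36 at 12 weeks. The 12-week arrays lay above those of 4 and 6 weeks but overlapped the 10-week ones, which differed most between replicates. The change was 0.34 ± 0.09 (SE, limma adjusted p = 0.12), and no alternative fit brought it under the threshold (adjusted p 0.058 to 0.44). Ntn1, the founding netrin, had a change of 0.10 ± 0.09, Ntn3 of −0.10 ± 0.07 and Ntn4, a netrin of basement membranes, of 0.00 ± 0.08.

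Netrin receptors differed in sign. Unc5c, a repulsive netrin receptor on chromosome 3 at 141465564 to 141834924, read 10.23 and 10.12 at 4 weeks, 10.15 and 10.23 at 6 weeks, 10.14 and 10.33 at 8 weeks, 10.22 and 10.34 at 10 weeks and 10.34 and 10.52 at 12 weeks. Its age means were higher at every step, and the 12-week arrays were the highest, although 12 weeks replicate 1 stood barely above 10 weeks replicate 2. The change was 0.24 ± 0.08 (SE, limma adjusted p = 0.23). Unc5d had a change of 0.20 ± 0.11, and its further probe set one of 0.32 ± 0.07 (limma adjusted p = 0.064 over all single-gene probe sets). Unc5a read 12.16 and 12.11 at 4 weeks, 12.25 and 12.24 at 6 weeks, 12.29 and 12.29 at 8 weeks, 12.21 and 12.21 at 10 weeks and 12.30 and 12.28 at 12 weeks. Both 4-week arrays were the lowest, and the change was 0.10 ± 0.06 (limma adjusted p = 0.56). Unc5b, known also from vessels, had a change of −0.15 ± 0.08, with its lowest levels, 8.14 and 8.20, at 10 weeks.

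Dcc, the receptor of netrin attraction, read 10.58 and 10.38 at 4 weeks, 10.34 and 10.32 at 6 weeks, 10.20 and 10.32 at 8 weeks, 10.11 and 10.07 at 10 weeks and 10.30 and 10.35 at 12 weeks. Both 4-week arrays were higher, and both 10-week arrays lower, than all others, and the 12-week levels were close to those of 6 weeks. The linear change was −0.22 ± 0.10 (SE, limma adjusted p = 0.43). Leaving out 4 weeks replicate 1 made this change −0.13, with an adjusted p of 0.84. A fit on the arrays of 4 to 10 weeks alone, scaled to the same 8 weeks, gave −0.50, with one of 0.089. The step of 12 minus 10 weeks was 0.23 ± 0.08 (SE, limma adjusted p = 0.87).

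**Figure D4:**
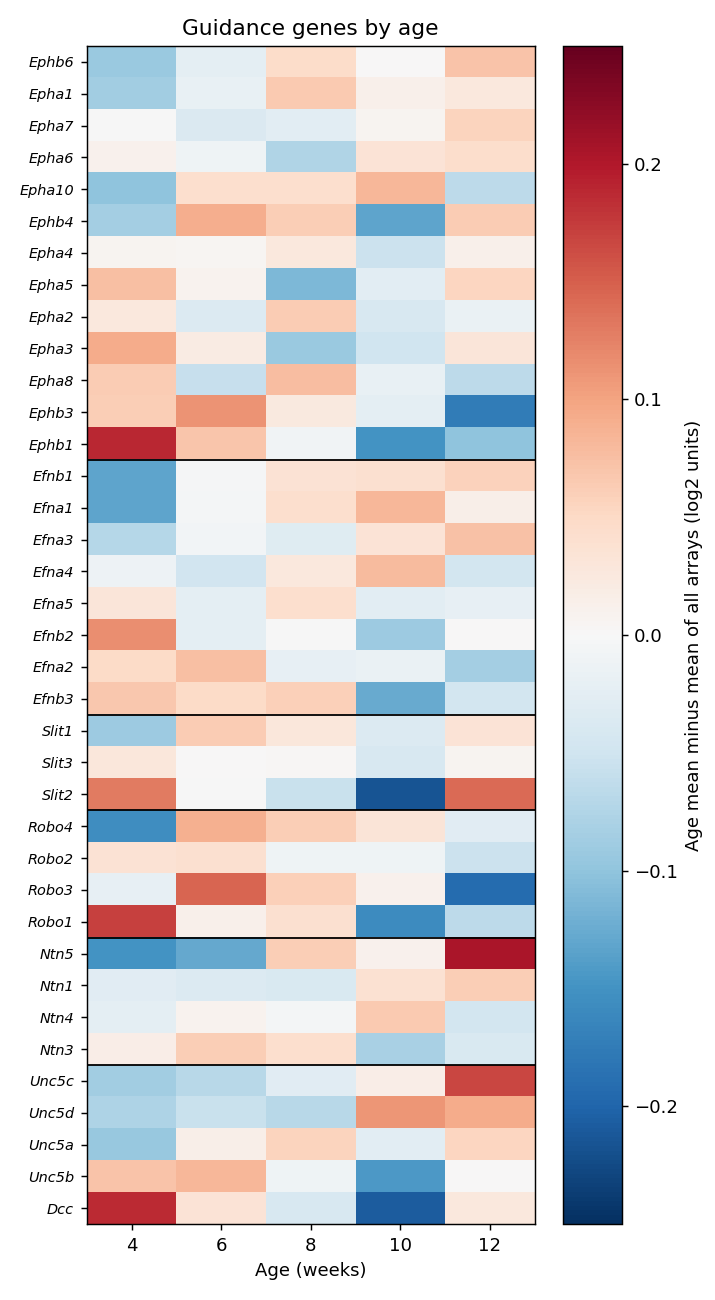
Age mean minus the mean over all 10 arrays (log2 units) for the 37 guidance genes at 4, 6, 8, 10 and 12 weeks, in rows grouped by family and ordered by linear change. Ephb1, Robo1 and Dcc are high at 4 weeks and low at 10 weeks, and Slit2 is low at 10 weeks and high at 4 and 12 weeks.

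Arrays of 4 weeks stood at the ends of the range for 8 of the 37 guidance genes, a tally made after the values were seen. Both were above the other 8 arrays for Dcc, Ephb1 and Robo1, that is 3 of 37, where 4.11% of all genes were. Both were below for Efna1, Efnb1, Robo4, Slit1 and Unc5a, that is 5 of 37, where 4.18% of all genes were. Both 10-week arrays were the lowest for Dcc, Robo1, Slit3 and Unc5b, that is 4 of 37, against 3.31% of all genes. At 12 weeks both were the highest for Epha7 and Unc5c (2 of 37, against 3.01%) and the lowest for Ephb3 (1 of 37, against 4%). Both 10-week arrays were the highest for 0 of 37, against 1.68%. At 6 weeks neither case held for any guidance gene, against 1.95% (highest) and 1.94% (lowest) of all genes, nor at 8 weeks, against 2.9% and 0.845%. With 37 genes these counts are small, and they were given no test.

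Between the ends of the series, 12 minus 4 weeks, 0 of 37 guidance genes passed in limma, where 0.516% of all genes did, and 7 had an unadjusted p under 0.05, against 9.57% of all genes. The smallest adjusted p was again that of Ephb1, 0.19, at −0.29 ± 0.07 (SE). Ntn5 followed with 0.35 ± 0.10 and Robo1 with −0.24 ± 0.08. Both 12-week arrays lay above both 4-week arrays for 12 of the 37, against 21.6% of all genes, and below them for 14, against 22.2%. These values share arrays with the trend and are not independent of it.

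The test for any difference between the ages (limma moderated F) called 0 of 37, with 0.167% of all genes called and a smallest adjusted p of 0.42, for Ephb1. At an unadjusted p under 0.05 it had 4 of 37, against 8.46% of all genes. The successive steps called 0 of 37 and 0% of all genes each. At an unadjusted p under 0.05 the counts of 37 were 2 for 6 minus 4 weeks (Robo4 and Slit1) and 0 for 8 minus 6. They were 2 for 10 minus 8 (Robo1 and Efnb3) and 2 for 12 minus 10 (Dcc and Slit2). The shares of all genes were 4.13%, 6.25%, 4.79% and 5.59% in the same order. Without 8 weeks replicate 2, the step of 8 minus 6 weeks rested on 8 weeks replicate 1, the array of narrowest distribution. Such a fit cannot tell the age from that array.

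Partners and effectors of these cues were read from lists chosen by textbook role, but with earlier results of these data known. Of 29 measured partners of Ephs and ephrins, 0 passed the trend, with a median change of −0.04. The smallest p-values there were those of Chn2, a Rac-inactivating protein of the chimaerin family (−0.39 ± 0.08, limma adjusted p = 0.052), and Ptpro, a phosphatase that acts on Eph receptors (−0.41 ± 0.09, limma adjusted p = 0.054). Chn2 passed in 7 of 19 alternatives (adjusted p 0.0090 to 0.20) and Ptpro in 6 of 19 (0.0083 to 0.20). Vav3, an exchange factor that acts downstream of Eph receptors, came next and had the other sign (0.44 ± 0.10, limma adjusted p = 0.056). Of 22 Slit and Robo partners 0 passed, with a median of −0.04, and Lrig1, a membrane protein with leucine-rich repeats, had a change of −0.21 ± 0.07. At an unadjusted p under 0.05 the counts were 12 of 29 (4 higher, 8 lower) and 4 of 22 (0 higher, 4 lower), against 11.7% of all genes. On the list of 27 netrin, Dcc and Unc5 partners 2 were higher and 6 lower. Of all genes 4.41% were higher and 7.28% lower.

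On the list of 27 netrin, Dcc and Unc5 partners 3 genes passed the trend in limma, 2 lower and 1 higher with age. Of all genes 0.673% and 0.147% did, and the list median was −0.05. The 1 higher gene, Ntng1, is on this list without being a known partner of these receptors. Draxin, a secreted guidance protein that binds netrin 1 and Dcc, read 8.72 and 8.80 at 4 weeks, 8.43 and 8.66 at 6 weeks, 8.65 and 8.44 at 8 weeks, 8.35 and 8.31 at 10 weeks and 7.97 and 8.19 at 12 weeks. It fell by 0.63 on the log2 scale over the series (SE 0.10, adjusted p = 0.012), with both 12-week arrays under all others. Trim67, a ubiquitin ligase that interacts with Dcc, read 9.32 and 9.61 at 4 weeks, 9.14 and 9.16 at 6 weeks, 8.97 and 9.13 at 8 weeks, 8.89 and 8.88 at 10 weeks and 8.77 and 8.92 at 12 weeks. It fell by 0.60 (SE 0.10, adjusted p = 0.014), with both 4-week arrays above all others. Ntng1, the membrane-anchored netrin G1, which does not bind Dcc or Unc5, read 9.92 and 9.74 at 4 weeks, 10.23 and 10.00 at 6 weeks, 10.07 and 10.20 at 8 weeks, 10.29 and 10.29 at 10 weeks and 10.49 and 10.37 at 12 weeks. It rose by 0.55 (SE 0.09, adjusted p = 0.014), with both 4-week arrays under all others. Ntng1 is also on the list of granule cell markers, where Trpc6 had a change of 0.29 ± 0.07, Plk5 of 0.27 ± 0.12 and C1ql2 of 0.19 ± 0.06 (limma adjusted p = 0.067, 0.42 and 0.24 in that order). Over the 10 genes of that list 7 changes were above 0 and 3 below it, with a median of 0.06. Tdo2 had the lowest, −0.44 ± 0.08. The part of granule cells in the level of Ntng1 was not tested. The calls of Draxin, Trim67 and Ntng1 were lost without both 12-week arrays (adjusted p 0.17, 0.063 and 0.16 in that order). They were also lost without 4 weeks replicate 1 (0.057, 0.060 and 0.068). Draxin and Ntng1 lost theirs without 4 weeks replicate 2 (0.063 and 0.067), and Trim67 and Ntng1 without 12 weeks replicate 1 (0.054 and 0.062).

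Markers of several cell types moved over the same ages, on lists also chosen with earlier results of these data known. Of 10 genes of newborn neurons 6 passed the trend as lower and 0 as higher, against 0.673% and 0.147% of all genes. All 10 had changes below 0, with list means of 10.60, 10.17, 9.98, 9.80 and 9.71 from 4 to 12 weeks. Of 8 genes of myelinating oligodendrocytes 6 passed as lower, with list means of 10.91, 10.73, 10.45, 10.38 and 10.31. Of 8 genes of their precursors and newly formed cells 6 passed as lower. On both lists all 8 changes were below 0. Of 8 genes of dividing progenitors 7 passed as lower, and all 8 changes were below 0. Of the 10 granule cell genes Ntng1 passed as higher and Tdo2 as lower (−0.44 ± 0.08, limma adjusted p = 0.032). The list means were 11.29, 11.36, 11.38, 11.35 and 11.39. Of 7 genes of CA2 and CA3 pyramidal cells Cacng5 passed as lower (−0.41 ± 0.07, limma adjusted p = 0.018), and of 8 genes of mossy cells Gal did (−0.86 ± 0.17, limma adjusted p = 0.037). Among the 8 astrocyte, 9 endothelial, 7 mural, 4 CA1 pyramidal and 8 interneuron genes 0 passed, nor did any on the lists of microglia, meningeal fibroblasts and choroid plexus. Their part in the levels of Ephb1, Robo1, Dcc, Draxin, Trim67 and the other guidance genes was not tested.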

How the data were processed

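Total RNA of mouse dentate gyri was measured on 10 Affymetrix arrays. Labelling was with biotin after enzymatic fragmentation, per the labels' protocols. The deposited values are taken as log2 units per probe set, since they run from 2.50 to 15.04 with array medians of 8.27 to 8.31; the log base and the software that made them are not given in the sources used here. The build was mm10, per the submitters' processing notes.

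Of 25254 probe sets 21496 had 1 gene in the platform annotation, 1565 several and 2193 none, and only the first were used. For 938 genes with several probe sets the highest mean was kept, which left 19752 genes, with no filter. Symbols were checked by gene number against RefSeq (GRCm38.p6), with 0 changed and 81 unmatched; coordinates come from there. Groups came from the sample titles.

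limma 3.58.1 in R 4.3.3 was run on all genes, two-sided, with Benjamini-Hochberg adjustment and a threshold of 0.05. The trend took age as a number and is given over 8 weeks; age as a factor gave the F-test and the pairwise comparisons. Errors of changes are standard errors, and the small number of arrays limits precision. The code was tested on simulated data. Replicate numbers recur across ages, but the deviations of same-numbered arrays correlated between −0.34 and 0.16, with 3 of 10 above 0.1, so no pairing was used.

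Full values were given for the 12 guidance genes of smallest trend p and for the largest change of each family; others were added after their values were seen. From each partner list the genes that passed were named, or else the 2 of smallest p, with Vav3 and the granule, CA3 and mossy cell markers added after their values were seen; a gene that this rule names among the Slit and Robo partners is not reported here. Members, lists and alternatives were chosen with earlier results of these data known. The alternatives were a replicate block, quantile normalization, median centring, a filter on dim genes, a trended variance prior, the mean over probe sets, log2 of age, and leaving out arrays. A fit over all single-gene probe sets was added after seeing the data.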

Additional observations from a re-analysis of the deposited data

How the results depend on the processing

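In the trend the count of guidance genes called was 0 of 37 and became 1, in each case Ephb1, without the dimmest 30% of genes, with a variance prior that follows intensity, and on log2 of age (adjusted p = 0.024, 0.023 and 0.031). Leaving out each array in turn gave 0 to 1, with Ephb1 called without 8 weeks replicate 1 (0.039) or 12 weeks replicate 1 (0.044). With the replicate number as a block, which does not pair the arrays, 0 were called (Ephb1 at 0.073), and Draxin, Trim67 and Ntng1 were called as without it; over all genes the trend called 161 with the block against 162, the F-test 13 against 33, and 12 versus 4 weeks 66 against 102. Cell type markers were not refitted with it. The F-test, 12 versus 4 weeks and the 4 steps called 0 guidance genes in every alternative run; where an age had a lone array, it was assumed to vary like the others. Over all genes the trend called 337 without dim genes, 350 with the trended prior and 35 to 279 without single arrays. The F-test called 69, 151 and 5 to 50 under the same settings, and 12 versus 4 weeks 210, 303 and 13 to 188. The 8 versus 6 week step called 0 where both ages kept 2 arrays, and the other steps called 0 to 10 in the alternatives run. Counts of the 8 versus 6 week step with a lone array are not given. Without 8 weeks replicate 2 the 8-week level was that of replicate 1, which stood apart.

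Of the 37 guidance genes, 27 kept the sign of their change in every alternative run for them and 10 did not. With single arrays left out the ranges were −0.020 to 0.0895 for Efna4, −0.066 to 0.13 for Epha10, −0.051 to 0.00302 for Epha4, −0.15 to 0.0097 for Epha5, −0.037 to 0.10 for Epha6, −0.093 to 0.095 for Ephb4, −0.021 to 0.0404 for Ntn4, −0.0015 to 0.15 for Robo4 and −0.23 to 0.019 for Slit2. Without both arrays that stood apart Efna4 had −0.0048 and Ntn4 −0.0023, with quantile normalization Epha4 had 0.0044, and without the 12-week arrays Ephb4 had −0.069 and Robo3 0.0032. The cause was not tested. Genes just over the dim level have differences that may be understated, and 2 arrays per age limit what single steps can show.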
